A study of Mus musculus with 30 samples.

Results

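Fcer1g positive innate-like T cells were the cells of MOC1 tumours that held T cell receptor complex transcripts together with Fcer1g and a natural killer (NK) cell lectin receptor. They numbered 585 of 11722 MOC1 T cells, and 1104 of 22459 T cells when the same rule was applied to all 8 single-cell RNA libraries of the series. A cell was a member when it had at least 300 genes, at most 10% mitochondrial UMIs, 1 or more UMI of Cd3e, Cd3d and Cd3g together, 1 or more of Fcer1g, 1 or more of Klra7, Klra1 or Klrb1c, and none of Cd4, Foxp3 or Cd163l1. A UMI is a molecular tag that counts an RNA molecule once. These genes and Cd8b1, which defined the cells for comparison, are 11 in all and chose the classes, so their values are given only as a description.

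The samples were immune cells from tumours of C57BL/6J mice. MOC1 is a mouse oral squamous carcinoma line grown as a transplanted tumour. Mice had received intraperitoneal antibody on days 3, 6 and 9 after tumour inoculation, either anti-CTLA-4, anti-PD-1 or an isotype control. Where 3 values stand together below, they belong to the isotype, the anti-PD-1 and then the anti-CTLA-4 library of MOC1. Each treatment gave 1 RNA library and 1 receptor library, so a difference between treatments has no replicate check and cannot be told apart from a difference between libraries. The sources used here give neither the number or age of the mice nor the meaning of the 4 hashtags, antibody-borne barcodes that mark pooled samples, in each MOC1 library. MOC1E1, called MOC1esc1 in some labels, and MOC22 are related carcinoma models with 3 and 2 RNA libraries. The same rule was applied to them, and many MOC1E1 cells held no UMI of Cd3e, Cd3d or Cd3g.

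Fcer1g encodes the Fc receptor gamma chain, a small adaptor with an immunoreceptor tyrosine-based activation motif (ITAM) that is abundant in NK cells, mast cells and myeloid cells and is absent from most conventional T cells. Klra7 and Klra1 encode Ly49 lectins that bind major histocompatibility complex (MHC) class I, and Klrb1c encodes NK1.1. T cells that carry such receptors include invariant natural killer T (NKT) cells, gamma-delta T cells, and unconventional alpha-beta T cells that lack CD4 and often CD8. Xcl1, which is often named with them, encodes a chemokine that attracts cross-presenting dendritic cells. In the mouse assembly GRCm38.p6, RefSeq places Fcer1g at chr1:171229572-171234349, Xcl1 at chr1:164931644-164935522, Klra7 at chr6:130218605-130233322, Klra1 at chr6:130363918-130386874, Klrb1c at chr6:128778485-128788641 and Tyrobp at chr7:30413782-30417582, each the whole span of a protein-coding gene.

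Clonal T cells are told apart by the DNA of the third complementarity-determining region (CDR3), where the V and J segments of a receptor chain are joined. In 27 members, TRAV11 was joined to TRAJ18, the alpha chain that defines invariant NKT cells. Their 5 CDR3 alpha sequences are shown because all 27 had 45 bases and differed only at positions 11 and 12, counted from the 5′ end and written in capitals.
TRAV11-TRAJ18, 11 cells: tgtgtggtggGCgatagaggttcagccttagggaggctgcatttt
TRAV11-TRAJ18, 11 other cells: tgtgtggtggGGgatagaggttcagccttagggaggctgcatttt
TRAV11-TRAJ18, 2 cells: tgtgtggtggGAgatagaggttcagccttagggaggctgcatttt
TRAV11-TRAJ18, 2 other cells: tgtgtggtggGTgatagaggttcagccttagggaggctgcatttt
TRAV11-TRAJ18, 1 cell: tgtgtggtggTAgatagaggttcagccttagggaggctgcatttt
The first 4 encode the same protein, which 26 of the 27 cells therefore shared. The first was read in 10 isotype cells and 1 anti-PD-1 cell, and the second in 6 isotype and 5 anti-PD-1 cells.

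The largest clone among the members was of another kind and held 6 cells of the isotype library. Its alpha chain joined TRAV14-3 to TRAJ56 and its beta chain TRBV13-3 to TRBJ2-7. The bases in capitals lie between the 5′ stretch shared by at least 0.3 of the chains with that V segment in these libraries and the 3′ stretch shared by at least 0.3 of those with that J segment.
Clone of 6, alpha: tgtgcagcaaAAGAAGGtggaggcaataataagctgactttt
Clone of 6, beta: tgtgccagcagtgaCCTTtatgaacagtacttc
Clone of 2, alpha: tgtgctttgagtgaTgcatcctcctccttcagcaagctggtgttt
The clone of 2 also came from the isotype library, used TRAV12-2 and TRAJ50, and had the same beta DNA as the clone of 6. All 5 cells of the clone of 6 with an assigned hashtag had the same hashtag. No cell of it held Cd8b1, 4 of 6 held Xcl1 and 1 held Ncr1.

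The members were a larger share of T cells with isotype and anti-PD-1 than with anti-CTLA-4. The isotype library had 274 members in 4542 T cells (6.03%, exact 95% interval 5.36 to 6.76). The anti-PD-1 library had 247 in 3565 (6.93%, 6.12 to 7.81), and the anti-CTLA-4 library 64 in 3615 (1.77%, 1.37 to 2.26). Intervals here and below cover counting error only. The anti-CTLA-4 share was 4.26 percentage points below isotype (interval of the difference -5.09 to -3.45), and the anti-PD-1 share was 0.896 points above it (-0.179 to 1.99), an interval that includes 0. Counting only members with a receptor chain, still over all T cells, the anti-PD-1 difference was 1.02 points (0.0289 to 2.04), which does not include 0. A chain was read in 84.1% of all isotype T cells and 88.4% of all anti-PD-1 T cells, so chain recovery also differed between these libraries. Members with Cd8b1 were 0.440% of isotype T cells (20 cells) and 0.304% of anti-CTLA-4 T cells (11 cells). That difference was -0.136 points (-0.410 to 0.150), an interval that includes 0. So few cells cannot show whether the lower anti-CTLA-4 share held in them. The share ranged over the 4 hashtags from 3.52 to 7.23% in the isotype library, from 5.38 to 8.51% in the anti-PD-1 library and from 1.25 to 2.21% in the anti-CTLA-4 library, so no hashtag of the anti-CTLA-4 library reached the lowest of the other libraries. With every cell thinned to 2000 UMIs the shares were 4.54%, 4.94% and 1.25%, and 568, 240 and 238 T cells below that depth were left out.

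These shares depend on which other T cells a library held. Conventional CD8 T cells, defined by 1 or more UMI of Cd8b1 and none of Fcer1g, numbered 1112, 1535 and 2284. Among T cells without UMIs of Cd4, Foxp3 or Cd8b1, members were 254 of 1347 (18.9%), 217 of 787 (27.6%) and 53 of 499 (10.6%). The anti-CTLA-4 library was the lowest on both denominators, and the anti-PD-1 library the highest.

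Cells that met the same rule were found in the other models in other amounts. Members were 11.2% of T cells in MOC1E1 with isotype (118 cells), 10.3% with anti-PD-1 (216 cells) and 3.48% with anti-CTLA-4 (73 cells). In MOC22 they were 2.18% with isotype (60 cells) and 1.90% with anti-PD-1 (52 cells). In MOC1 and in MOC1E1, the anti-CTLA-4 library had the lowest share of its model. Filtered cells with a Cd3 UMI, counted here as T cells, were 1055 of 3470, 2101 of 4917 and 2097 of 3116 in MOC1E1. They were 4542 of 4684, 3565 of 3674 and 3615 of 3685 in MOC1, and 2746 of 2774 and 2738 of 2755 in MOC22. The part of other cells with a stray Cd3 UMI in the MOC1E1 shares was not tested.

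**Figure D1:**
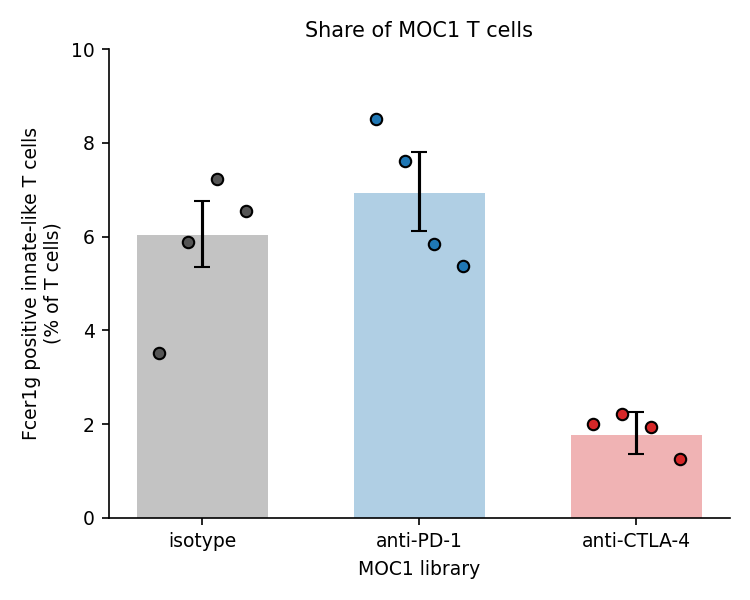
Members as a percent of T cells in the 3 MOC1 libraries; bars give the library with its exact 95% interval and points give its 4 hashtags. All 4 anti-CTLA-4 hashtags lie between 1.25 and 2.21%, below every hashtag of the other libraries.

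Levels are given as CPM, the UMIs of a gene summed over a class in a library and scaled to the UMIs of all genes in that sum. The genes of the rule come first, as a description of cells that hold them by construction. Fcer1g stood at 1126, 1356 and 1147 CPM, and 531 of the 585 held 2 or more UMIs of it. Klra7 was at 324, 429 and 492 CPM, Klra1 at 202, 253 and 224, and Klrb1c at 142, 84.7 and 77.2. Of the 585, 168 held Klra7 alone of the 3 lectins, 86 Klra1 alone, 59 Klrb1c alone, 220 held 2 and 52 held all 3. Ly49 genes are near-identical copies, so UMIs of Klra7, Klra1 and their relatives could be split between them.

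T cell receptor chain transcripts, which the rule did not use, were present in most members. Trac, Trbc1 or Trbc2, the constant segments of the alpha and beta chains, had a UMI in 230 of 274, 221 of 247 and 59 of 64 members. Neither Cd8a nor Cd8b1 was read in 443 of 585 members, or 80.3%, 75.3% and 57.8% of the 3 libraries. Cd8a without Cd8b1 was read in 81 and Cd8b1 in 61. Trdc or Tcrg-C1, constant segments of the delta and gamma chains, had a UMI in 89. Xcl1 had a UMI in 211 of 274, 194 of 247 and 30 of 64 members, against 18.8%, 20.2% and 11.4% of conventional CD8 T cells, whose median depth was higher, and 7.78%, 7.02% and 5.48% of cells with both Foxp3 and Cd4. Median depth was 5128, 5264 and 5158.5 UMIs per member and 6092, 6911 and 6103 per conventional CD8 T cell.

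Fcer1g itself was scarce in cells with both Foxp3 and Cd4. Conventional CD8 T cells lacked it by definition, and T cells with Cd163l1 or with Fcer1g but no lectin of the rule were not counted. Among cells with both Foxp3 and Cd4, regulatory T cells that should lack it, 7.49%, 4.01% and 1.37% held a Fcer1g UMI at median depths of 7819, 7031 and 10296. Dropping only the requirement for Fcer1g added 92, 56 and 34 cells, so Fcer1g was read in 76.3% of 767 cells with the other features of the rule. Around the threshold, Tyrobp, which encodes the partner adaptor DAP12 and was not part of the rule, was at 37.2 CPM or less in each library of the 182 cells with no Fcer1g UMI. Its level was 95.3, 60.8 and 0 CPM in the 54 members with 1 UMI, and at 252, 407 and 254 CPM in those with 2 or more.

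Signs of other cell types were few and uneven. Macrophage and monocyte markers summed to 43.2, 2.02 and 352 CPM, with Fcgr1 at 0 of 11 genes. Neutrophil markers summed to 76.2, 0 and 0 CPM, with Retnlg at 0 of 5 genes. Dendritic cell markers summed to 12.1, 4.70 and 237 CPM, and 5 of 7 genes were at 0, among them Flt3, Xcr1 and Clec9a. Mast cell and basophil markers, which matter because those cells carry Fcer1g, summed to 6.98, 1.34 and 4.83 CPM, and 5 of 6 genes were at 0, among them Fcer1a, Ms4a2 and Cpa3. B cell markers were at 4.44, 8.74 and 9.66 CPM, and carcinoma keratins with Epcam at 17.8, 16.8 and 14.5. At least 3 UMIs of the macrophage, neutrophil or dendritic lists were held by 5, 1 and 3 members. More than 1 hashtag marked 17 members and 2 or more productive beta chains marked 42. NK cell markers summed to 341, 654 and 980 CPM in members and to 355, 776 and 184 CPM in conventional CD8 T cells. Ncr1, which encodes the NK receptor NKp46, had a UMI in 26, 26 and 1 members. The part of these other cell types in the results below was not tested, except where values without them are given.

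Most members had a rearranged alpha-beta receptor. A productive alpha or beta chain was read in 82.1%, 86.2% and 87.5% of members and in at least 93.4% of conventional CD8 T cells of each library. The members minus CD8 T cells gave -11.3 points in the isotype library (interval -16.5 to -6.93), -8.81 in the anti-PD-1 library (-13.8 to -4.88) and -6.24 in the anti-CTLA-4 library (-16.6 to -0.117). The anti-CTLA-4 interval included 0 against CD8 T cells without Cd4 and Foxp3 (-16.1 to 0.334). It also did without members holding Ncr1 (-15.0 to 0.874), and without cells of several hashtags or 2 or more beta chains (-18.5 to 0.236). In members with Cd8b1, a chain was read in 95%, 100% and 100%. Both chains were read in 59.1%, 65.2% and 67.2% of members and in 78.2%, 84.9% and 81.9% of CD8 T cells. The alpha chain was the one most often missing, read in 61.3%, 68.8% and 70.3% of members and the beta chain in 79.9%, 82.6% and 84.4%. No test was made across cells.

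The members were clonally diverse. Of those with both chains, 10 of 162 isotype cells (6.17%, interval 3.00 to 11.1), 7 of 161 anti-PD-1 cells (4.35%, 1.77 to 8.75) and 7 of 43 anti-CTLA-4 cells (16.3%, 6.81 to 30.7) shared their pair of CDR3 sequences with another cell of the library. The same shares were 32.2%, 60.3% and 70.4% in conventional CD8 T cells. The largest clone within the members had 6, 3 and 2 cells, against 27, 185 and 86 among CD8 T cells. The class sizes differ, and a smaller class leaves fewer chances for cells to share a receptor with a cell of the same class. A pair was therefore counted as shared with any cell of the library. No isotype member shared its pair with a cell outside the class, while 4 anti-PD-1 and 7 anti-CTLA-4 members did.

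The invariant NKT rearrangement was a minor part of the class. TRAV11 with TRAJ18 was read in 17 of 168 isotype members with an alpha chain (10.1%, interval 6.01 to 15.7), 10 of 170 anti-PD-1 members (5.88%, 2.86 to 10.6) and 0 of 45 anti-CTLA-4 members, which allows up to 7.87%. In conventional CD8 T cells it was read in 1 of 916, 1 of 1335 and 0 of 1938. Among all T cells with an alpha chain it was read in 105 of 3328 (3.16%), 39 of 2803 (1.39%) and 8 of 2907 (0.275%). Most cells with it were therefore not members, and the anti-CTLA-4 library had the lowest share among all T cells too. Cells that met the rest of the rule but held no Fcer1g UMI had it in 12 of 55, 3 of 34 and 2 of 30. Of the 24 invariant members with a beta chain, 12 used TRBV13-2 and 4 used TRBV1. TRBV13-2 encodes Vβ8.2, the segment most used by invariant NKT cells, and TRBV1 encodes Vβ2.

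The invariant members differed in level from the other members, as a description from 17 and 10 cells. Klra7 was at 81.9 and 0 CPM in the isotype and anti-PD-1 invariant cells, against 397 and 491 CPM in members with both chains and another alpha rearrangement. The other lectins of the rule were higher in the invariant cells, Klrb1c at 328 and 109 CPM against 105 and 64.0 and Klra1 at 269 and 290 against 177 and 244, and a member low in 1 of the 3 must hold another. Gzmb, the granule protease granzyme B, was at 725 and 2905 CPM against 60.7 and 277. Cxcr6, a homing receptor, was at 339 and 454 CPM against 32.0 and 140. Ikzf2, which encodes Helios, was at 105 and 36.3 CPM against 360 and 269. Xcl1 was at 433 and 599 CPM against 1108 and 1074, with a UMI in 13 of 17 and 8 of 10 invariant cells. Zbtb16, which encodes the NKT cell factor PLZF, had a UMI in 2 of 17 and 2 of 10 invariant cells, at a median depth of 4658 and 5062.5 UMIs.

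Beyond the invariant cells the V and J segments were mixed. Of 59 segments read in 10 or more members, 6 had a higher share in the members of every library than in conventional CD8 T cells of any library, and 1, TRAJ26, a lower one. TRBJ2-3 was used by 9.59%, 7.35% and 20.4% of members with a beta chain, against 5.84%, 6.94% and 3.71% of CD8 T cells. TRBV12-2 was used by 6.85%, 7.35% and 14.8%, against 4.43%, 5.61% and 2.31%. The other 4 were TRAV12-2, TRAV12D-2, TRAJ21 and TRAJ34, and these 7 segments were named after their values were seen. Shares among CD8 T cells count every cell of an expanded clone.

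Members with no chain read were 49, 34 and 8 cells, and Trdc, Ncr1 and Tyrobp, though not every NK gene, were higher in them. Trdc or Tcrg-C1 had a UMI in 20 of 49, 20 of 34 and 2 of 8 of them, against 12 of 147, 12 of 152 and 0 of 43 members with both chains and no invariant rearrangement. Ncr1 had a UMI in 10 of 49, 8 of 34 and 1 of 8, against 10 of 147, 11 of 152 and 0 of 43. Tyrobp was at 307, 823 and 479 CPM against 229, 341 and 139. Klre1 was at 59.7, 139 and 360 CPM against 102, 141 and 194, Eomes at 55.1, 98.5 and 47.9 against 57.5, 61.0 and 51.7, and Tcrg-C1 at 78.0, 11.6 and 47.9 against 14.9, 12.0 and 0, so these did not go one way in the 3 libraries. Trac, Trbc1 or Trbc2 was still read in 33, 28 and 6 of the cells with no chain. Their median depth, 4323, 4747.5 and 3787.5 UMIs, was below the 5529, 5790.5 and 5746 of the others.

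**Figure D2:**
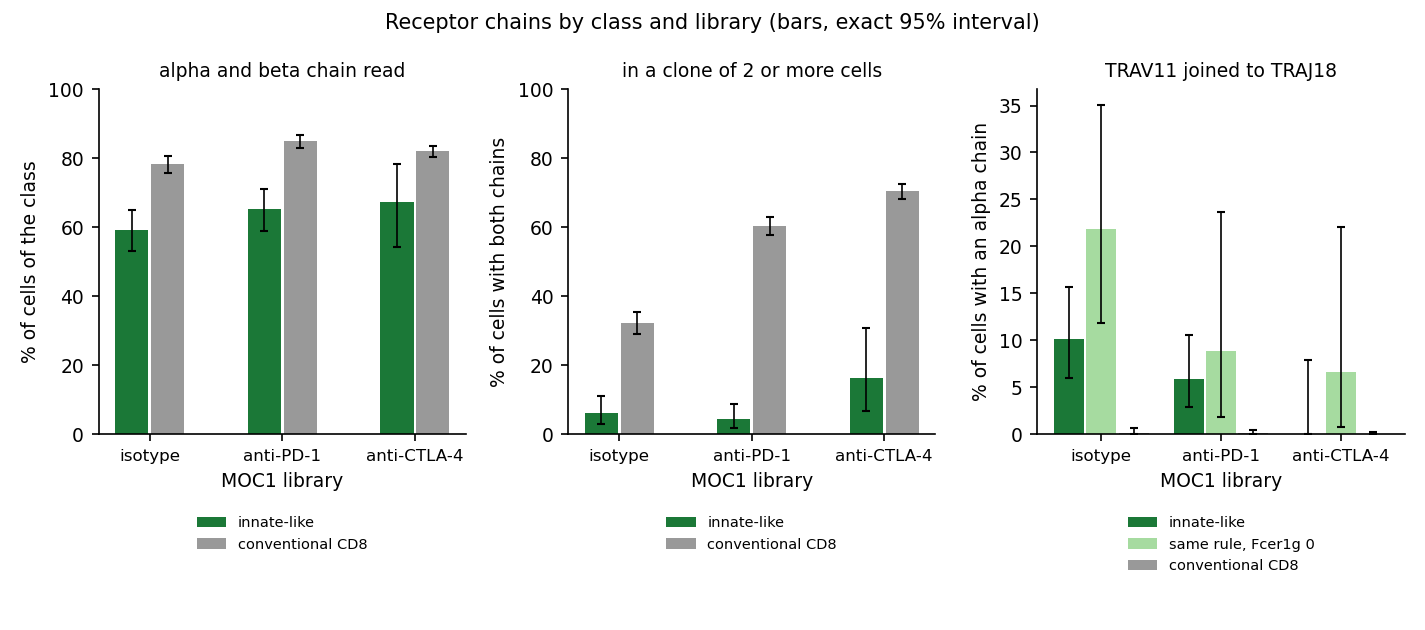
Percent of cells, with exact 95% intervals, that had both receptor chains, that shared their pair with another cell of the library, and whose alpha chain joined TRAV11 to TRAJ18, by class in the 3 MOC1 libraries. In every library fewer members than CD8 T cells had both chains, at most 67.2%, and shared a pair, at most 16.3%.

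Gene expression was compared between the members and conventional CD8 T cells on UMI counts summed per library and class, with the library as a block because both classes came from it. Of 9948 genes tested, 653 (6.56%) rose and 697 (7.01%) fell in the members at an edgeR adjusted p of 0.05 or less. Without the anti-PD-1 library, the calls were 240 and 309. The libraries are the replicates, nothing says that they come from separate experiments, and p-values measure only the spread between them. Because members were chosen on Fcer1g and 3 lectin genes, transcripts that accompany those genes in a cell are tied to the choice.

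The CD8 class set by 1 UMI of Cd8b1 was itself mixed. Of its 1112, 1535 and 2284 cells, 413, 298 and 267 also held Cd4 or Foxp3, and 24.2%, 31.8% and 54.8% of cells with both Foxp3 and Cd4 held a Cd8b1 UMI. Each result below was therefore also taken against the 3953 CD8 T cells without UMIs of Cd4 and Foxp3, a comparison chosen after seeing the data and called the stricter CD8 class. It called 455 (5.05%) of 9008 genes higher and 427 (4.74%) lower, 9.79% in all. Of the 653 and 697 genes, 622 and 643 could be tested again, 406 and 410 were called again in the same direction, and 0 in the opposite one.

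ITAM adaptors and the signalling proteins near the receptor moved apart. Of 20 tested genes of that list, 5 rose and 6 fell, with a median log2 change of -0.15 beside 0.01 over all genes tested. Tyrobp was at 240, 384 and 232 CPM in the members and at 1.50, 2.37 and 0.784 CPM in CD8 T cells. Every library of the members was far above every library of the CD8 class, and the log2 change was 7.67 (SE 0.18, edgeR adjusted p = 1.30e-08). Plcg2, a phospholipase downstream of ITAM receptors in B and NK cells, was at 16.5, 20.2 and 26.6 CPM against 1.73, 1.97 and 2.86 and also rose. Lat, the scaffold that couples the T cell receptor to calcium signalling, was at 253, 281 and 268 CPM against 721, 661 and 653, and fell by 1.25 on the log2 scale (SE 0.10, edgeR adjusted p = 5.55e-05). Ubash3a, a phosphatase that restrains T cell receptor signals, fell by 1.10. Tyrobp, Plcg2, Lat and Ubash3a were called in the same direction against the stricter CD8 class.

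NK cell lectins rose as a group. Of 15 tested killer lectin-like receptor genes outside the rule, 11 rose and 1 fell, with a median log2 change of 3.50. Klra9, Klra6 and Klra3, further Ly49 genes, rose by 7.05 (SE 0.37), 6.09 (SE 0.42) and 3.74 (SE 0.24). Klra9 was at 47.6, 50.4 and 41.0 CPM in members and at 0.808, 0.237 and 0.168 CPM in CD8 T cells. Their resemblance to Klra7 and Klra1 ties these 3 values to the choice of members. Klrc2, which encodes NKG2C, was at 71.7, 77.9 and 45.9 CPM against 5.08, 5.44 and 10.1 and rose by 3.50 (SE 0.29, edgeR adjusted p = 6.30e-05). Klrb1a, an NK1.1 relative, and Klre1, a receptor of NK cells, rose by 6.44 and 2.02. Klrg1, a lectin of effector T and NK cells, fell by 2.92, but its adjusted p was 0.103 against the stricter CD8 class, where its log2 change was -0.98.

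Other NK receptors followed with smaller changes. Of 11 tested, 7 rose and none fell, with a median of 0.91, and against the stricter CD8 class 4 of 10 rose. Ncr1 had 41, 43 and 1 UMIs in the members and 0 in conventional CD8 T cells of each library, where 3 UMIs over the 3 libraries served as the floor. On CPM over the 3 libraries it was at least 319-fold higher in the members. Fcgr3, the Fc receptor CD16 that signals through the Fcer1g product, was at 14.6, 9.41 and 19.3 CPM against 0.462, 0.316 and 0.448 and rose by 5.15 (SE 0.45). Cd7, an immunoglobulin family receptor of T and NK cells, was at 1240, 1778 and 1680 CPM against 269, 248 and 846. Its groups did not overlap and its log2 change was 2.13 (SE 0.29, edgeR adjusted p = 0.00102). Cd160, a receptor for a tumour necrosis factor family protein and MHC class I, rose by 1.06 (SE 0.15). Of 5 tested NK cell markers, Ncr1, Klre1 and Eomes rose, but Eomes, a transcription factor of NK and memory CD8 T cells, was lost without the anti-PD-1 library and had a log2 change of 0.35 (edgeR adjusted p = 0.367) against the stricter CD8 class.

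T cell receptor chains and coreceptors split by lineage. Of 11 tested, the 4 gamma and delta constant segments rose, and Cd5, Cd6, Cd8a, Trac, Trbc1 and Trbc2 fell, with a median of -0.48. Trdc was at 24.8, 39.6 and 14.5 CPM against 3.69, 1.66 and 0.840 and rose by 3.83 (SE 0.39). Tcrg-C4 and Tcrg-C1 rose by 3.97 and 3.33. Tcrg-C2 rose by 1.36, but its log2 change was 0.74 without the isotype library and 1.35 without the anti-CTLA-4 library, neither called, and 0.87 (edgeR adjusted p = 0.105) against the stricter CD8 class. Cd8a was at 76.2, 126 and 345 CPM against 501, 1116 and 1126 and fell by 2.44 (SE 0.21), a difference tied to Cd8b1 in the definition of the CD8 class. Cd5, a scavenger family receptor whose level tracks T cell receptor signal strength, was at 45.7, 42.3 and 38.6 CPM against 281, 221 and 205 and fell by 2.37 (SE 0.13, edgeR adjusted p = 4.36e-06). Cd6, its neighbour in family and function, fell by 2.09.

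Among cytokines, Xcl1 was the 1 gene of 16 tested that rose, while 6 fell. It was at 991, 1074 and 466 CPM in members and at 318, 453 and 114 CPM in CD8 T cells, and the 3 members' values lay above the 3 CD8 values. Its log2 change was 1.72 (SE 0.13, edgeR adjusted p = 3.68e-05), and 1.57 against the stricter CD8 class. Xcl1 had been named as a marker of these cells from earlier results of these data, so its rise is no independent evidence. Il13, a type 2 cytokine, had 1, 2 and 0 UMIs in members and 218, 578 and 197 in CD8 T cells. Areg, the epidermal growth factor family ligand amphiregulin, fell by 3.14 and by 1.63 against the stricter CD8 class. Ltb, a lymphotoxin chain, fell by 0.42, but was not called without the isotype library, without the anti-PD-1 library, or against the stricter CD8 class.

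Cytotoxic genes did not share a direction. Of 15 tested, 4 rose and 1 fell, with a median of 0.01. Gzmc, a granzyme of strongly activated killer cells, was at 40.6, 170 and 121 CPM against 4.96, 12.2 and 43.0. The highest CD8 value lay just above the lowest member value, and the log2 change was 2.91 (SE 0.37). Ctsw and Serpinb6b, a protease and a protease inhibitor of killer cells, rose by 0.70 and 0.87. Gzmk, a granzyme of memory-like and exhausted CD8 T cells, was at 4.44, 44.4 and 16.9 CPM against 177, 285 and 143 and fell by 3.27 (SE 0.33, edgeR adjusted p = 1.77e-04). The log2 changes of Gzmb, Gzma, Prf1 and Ifng were -0.99, 0.39, -1.34 and -0.74, and none was called (edgeR adjusted p = 0.0802, 0.742, 0.166 and 0.103). Gzmb ranged from 165 to 826 CPM across the members of the 3 libraries and from 565 to 1134 in CD8 T cells.

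Checkpoint and costimulatory receptors fell. Of 15 tested, 11 fell and none rose, with a median of -1.66, and against the stricter CD8 class 8 fell with a median of -0.91. Havcr2, which encodes TIM-3, was at 2.54, 3.36 and 9.66 CPM against 42.0, 98.9 and 45.0, and fell by 3.98 (SE 0.33). Lag3 was at 24.1, 55.1 and 72.4 CPM against 218, 837 and 160 and fell by 2.91 (SE 0.37). Ctla4 was at 77.4, 101 and 205 CPM against 855, 771 and 536, and in the stricter CD8 class at 260, 548 and 459. It fell by 2.55 against the first and fell by 1.75 against the second (edgeR adjusted p = 3.70e-04 and 3.67e-04). Icos fell by 2.00 and fell by 1.61 in the same comparisons, and Tnfrsf4, which encodes the costimulatory receptor OX40, by 4.14 and 2.42. Penk, a neuropeptide precursor that tumour regulatory T cells express, fell by 7.35 and 6.03 with 4 UMIs in all members. Il2ra, the interleukin-2 receptor alpha chain, fell by 2.56 but by 0.64 against the stricter CD8 class, where its CD8 levels were 60.3, 30.2 and 59.5 CPM and no longer 347, 124 and 71.9. Maf and Il1rl1, genes of tissue regulatory T cells, were called only against the first.

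Cell cycle genes fell together. Of 22 tested, 20 fell and none rose, with a median of -1.77, and 17 fell against the stricter CD8 class. Mki67, the proliferation antigen Ki-67, was at 15.9, 12.8 and 14.5 CPM against 61.9, 52.1 and 91.4, with no overlap, and fell by 2.00 (SE 0.19, edgeR adjusted p = 1.32e-04). It had a UMI in 4.74% and 3.24% of isotype and anti-PD-1 members, against 13.8% and 13.7% of CD8 T cells. Top2a, Birc5 and Ube2c, genes of DNA untangling and chromosome segregation, fell by 1.84, 2.05 and 2.83.

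Genes of resting and memory T cells rose. Of 14 tested, 10 rose and 2 fell, with a median of 0.88. Bcl2, the survival factor, was at 272, 194 and 79.7 CPM against 101, 50.5 and 15.9. The lowest member value lay below the highest CD8 value, yet within each library the members were higher, and the log2 change was 1.92 (SE 0.15, edgeR adjusted p = 4.95e-05). Tcf7, a transcription factor of stem-like T cells, rose by 1.24, and Klf3, a factor linked to quiescence, by 1.80. Bcl2, Tcf7 and Klf3 were also called against the stricter CD8 class, Tcf7 with an edgeR adjusted p of 0.0492. Of 17 cytokine receptors 6 rose, among them Il4ra by 1.06 and Il7r by 0.73, and Il7r was not called without the anti-PD-1 library (log2 change 0.52). Il2rb, the receptor chain for interleukins 2 and 15, was at 863, 874 and 893 CPM against 570, 781 and 602 and rose by 0.54. It was named after its values were seen.

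Tissue residency and homing genes divided evenly. Of 21 tested, 7 rose and 6 fell, with a median of -0.14. Cd9, a tetraspanin, was at 138, 114 and 38.6 CPM against 32.9, 35.9 and 12.7 and rose by 1.94 (SE 0.15). Ahr, the aryl hydrocarbon receptor, rose by 1.39, and Itga1, the CD49a collagen receptor, by 1.40. Cxcr6 was at 64.1, 140 and 162 CPM against 171, 563 and 489 and fell by 1.59, and Prdm1, which encodes Blimp-1, fell by 3.27. Itgae, the CD103 chain that binds epithelial cadherin, had a log2 change of -0.29 (edgeR adjusted p = 0.483). Of 21 transcription factors 6 rose, among them Id3, an inhibitor of E proteins, by 1.90, and 7 fell, among them Batf and Rora with log2 changes of -1.33 and -1.43. Zbtb16 had a log2 change of 2.08 (edgeR adjusted p = 0.0625) with 21, 14 and 0 UMIs in members.

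Type I interferon response genes were mostly not called, with 1 of 16 higher and 1 lower. Irf7, an interferon regulatory factor, rose by 0.63 and was not called without the anti-PD-1 library (log2 change 0.45). Ifi27l2a, an interferon-induced gene, was at 388, 419 and 150 CPM against 1633, 1496 and 461 and fell by 1.77. H2-Ab1, an MHC class II chain of antigen-presenting cells, was called higher at 2.19, with 42 of its 55 anti-CTLA-4 UMIs in 1 cell. It was at 0.57 and not called without the anti-CTLA-4 library, and at -0.50 without the cells that held myeloid transcripts.

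Genes outside the lists were among the largest rises. Rbpms, an RNA-binding protein, was at 84.4, 79.3 and 24.1 CPM against 1.50, 0.710 and 0.168 and rose by 6.48 (SE 0.27, edgeR adjusted p = 4.41e-07). Atp1b1, a sodium pump subunit, was at 117, 147 and 116 CPM against 4.27, 2.92 and 2.02 and rose by 5.50. Emid1, a secreted matrix protein, and Klhdc2, a ubiquitin ligase adaptor, rose by 3.83 and 2.79. Txk, a Tec family kinase, rose by 1.99, Nsg2, a vesicle protein best known in neurons, by 2.10, Rhob, a small GTPase, by 2.12, Maff, a leucine zipper factor, by 1.91 and Prkd3, a protein kinase D, by 1.91. All 9 were called against the stricter CD8 class. Tnfsf11, the cytokine RANKL, and Il1r2, a decoy receptor for interleukin-1, fell by 3.20 and 2.84.

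**Figure D3:**
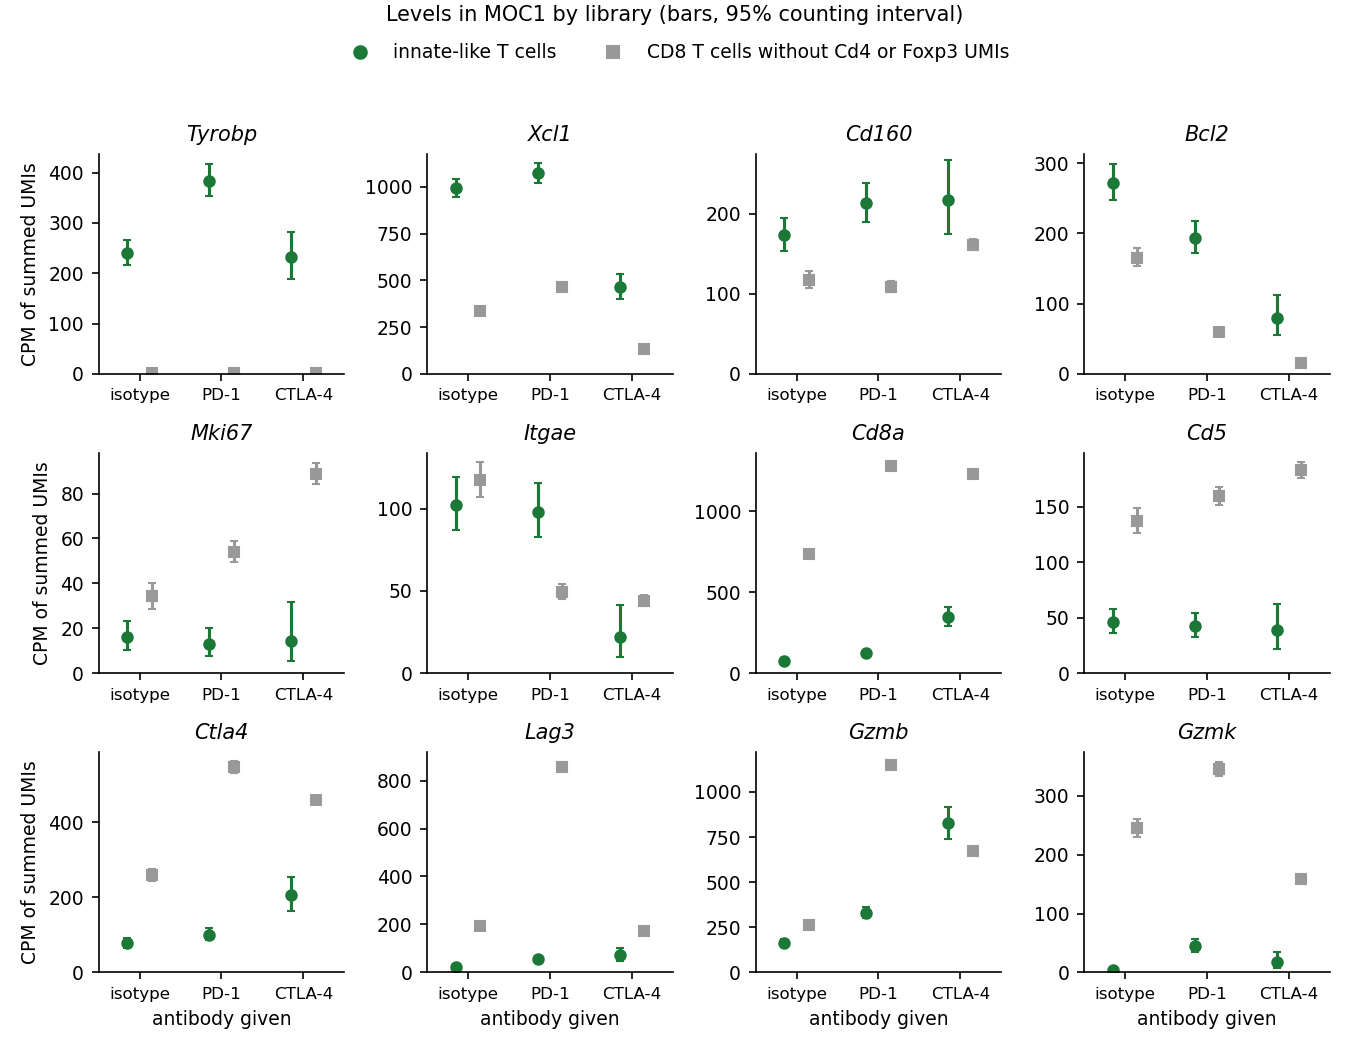
CPM of 12 genes in the members and in CD8 T cells without Cd4 and Foxp3, by MOC1 library, with 95% Poisson intervals that cover counting error only. Tyrobp is above 230 CPM in each library of the members, while Ctla4, Lag3 and Gzmk are below the CD8 class in each library.

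The same rule and comparison in the 5 MOC1E1 and MOC22 libraries called 472 of 8167 genes (5.78%) higher and 549 (6.72%) lower. Members there were also chosen on Fcer1g and the 3 lectin genes. Transcripts that accompany those genes, and Ly49 genes such as Klra9, are therefore tied to the choice there too. Of genes tested in both sets, 263 were called higher in both, 48.9% of 538 in MOC1 and 56.7% of 464 in the other models, and 350 were called lower in both, 61.7% of 567 and 65.4% of 535. A single gene was called in opposite directions. Tyrobp rose by 7.59 there (SE 0.14, edgeR adjusted p = 4.89e-13), Klra9 by 7.24, Rbpms by 6.89, Trdc by 3.92 and Fcgr3 by 4.40. Havcr2, Lag3, Ctla4 and Mki67 fell by 3.28, 2.25, 3.36 and 1.90. All 6 tested NK cell markers were called higher, against 3 of 5 in MOC1, including Eomes by 1.79. In MOC1E1, 81 of 118 isotype and 119 of 216 anti-PD-1 members held no Ncr1 UMI. In MOC1 these were 248 of 274 and 221 of 247. With 2 or more Cd3 UMIs, 99 and 165 of those MOC1E1 members remained, against 273 and 246 in MOC1. Without members that held Ncr1, 386 genes were called higher and 455 lower in the other models. The part of such cells in the NK marker rise was not tested. Xcl1 had a log2 change of 0.78 and was not called (edgeR adjusted p = 0.109), although 4 of 5 libraries were higher. Tcf7, Klf3, Il7r, Nsg2 and Klrg1 were also not called, with edgeR adjusted p from 0.0518 to 0.979. Klrg1 had the opposite sign there (0.51). Whether these changes differ between the models was not tested.

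**Figure D4:**
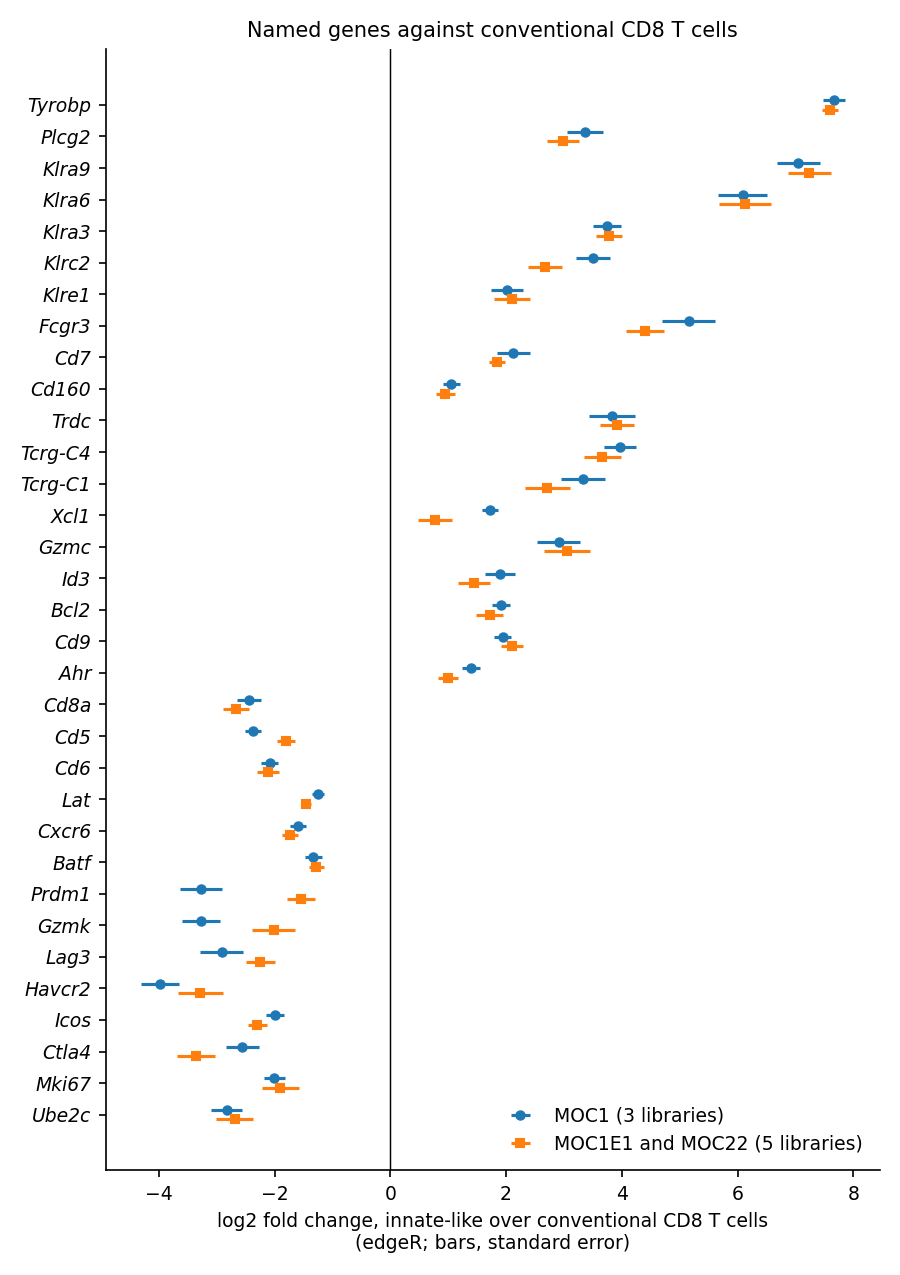
Log2 fold change of named genes in members over conventional CD8 T cells, with standard errors from edgeR, for the 3 MOC1 libraries and for the 5 MOC1E1 and MOC22 libraries. The 2 sets of points lie on the same side of 0 for every gene shown, with Tyrobp at 7.67 and 7.59; Klrg1, whose sign differed, is not plotted.

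Treatments were compared within the class as ratios of CPM to isotype, with no test, since each has 1 library. A gene counted as past the fold when its ratio was 2 or more in either direction, its 95% Poisson intervals did not overlap, and its UMIs reached 10 in a library. For the PD-1 antibody, 47 of 8184 genes (0.574%) were higher past the fold and 77 (0.941%) lower. For the CTLA-4 antibody, 167 of 7917 (2.11%) were higher and 135 (1.71%) lower, from 64 cells. A single cell often held most of the UMIs of a gene, so the number of cells with a UMI is given beside each level.

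With anti-PD-1 none of Trac, Trbc1, Trbc2, Trdc, Cd8a, Ncr1, Zbtb16, Xcl1, Itgae and Tyrobp was past the fold. Trac was at 155 CPM with anti-PD-1 and 150 with isotype, Xcl1 at 1074 and 991, Itgae at 98.1 and 102, and Ncr1 at 28.9 and 26.0. Tyrobp was at 384 and 240 CPM, in 112 of 247 and 98 of 274 cells. Cd8a was at 126 and 76.2 CPM, Trdc at 39.6 and 24.8, Zbtb16 at 9.41 and 13.3, and Cd8b1, a gene of the class definitions, at 97.4 and 48.9. The largest ratios rested on few cells. Csf2, a growth factor for myeloid cells, was at 48.4 and 1.27 CPM, and 67 of its 72 UMIs were in 1 cell. Gzma was at 344 and 109 CPM, with 336 of 512 UMIs in 1 cell, and its log2 ratio was 1.66 with that cell and 0.59 without the top cell of each library.

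Some anti-PD-1 ratios were spread over many cells. Sfn, the cell cycle regulator 14-3-3 sigma, had a UMI in 31 of 247 anti-PD-1 cells and 8 of 274 isotype cells, at 30.9 and 5.08 CPM. Polg2, a mitochondrial DNA polymerase subunit, was read in 33 and 13 cells, and Fam26f, a membrane protein of activated immune cells, in 32 and 12. In the stricter CD8 class the log2 ratios of these 3 genes were 0.74, -0.14 and -0.25, below 2-fold. With thinning their log2 ratios in the members were 1.71, 0.82 and 1.02, and none was past the fold. Among the lists, the checkpoint receptors Pdcd1 (93.4 and 38.1 CPM, 35 and 29 cells) and Lag3 (55.1 and 24.1 CPM, 33 and 20 cells) were higher past the fold. The homing receptor Cxcr6 (85 and 49 cells) was too, and Pdcd1, Lag3 and Cxcr6 were also at least 2-fold higher in the stricter CD8 class. Tnfrsf4 was lower, at 21.5 and 62.8 CPM. Of 12 cytokines, Ccl1, Ccl3, Ccl4, Lta and Areg were lower past the fold, and 134 of the 154 isotype UMIs of Ccl1 were in 1 cell. The log2 ratios of Ccl3, Ccl4 and Areg were -1.29, -1.09 and -1.42 in the members. In the stricter CD8 class they were 1.36, 1.24 and 0.74, the opposite sign, a difference that was not tested. Ccl3, Ccl4 and Areg were read in 15, 27 and 6 of 247 anti-PD-1 members and in 15, 30 and 6 of 274 isotype members. Without the top cell of each library their log2 ratios in the members were -0.99, -1.64 and -1.08, so Ccl3 was below 2-fold. These list members were named after their values were seen.

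With anti-CTLA-4 the members held more Cd8a and less Zbtb16 and Ncr1, while other NK genes went both ways. Cd8a was at 345 CPM with anti-CTLA-4 and 76.2 with isotype, read in 26 of 64 and 47 of 274 cells. Its log2 ratio was 2.18, or 2.14 without the top cell of each library, and 0.74 in the stricter CD8 class. Cd8a reads also rose in cells with both Foxp3 and Cd4. It had a UMI in 50.7% of 73 such cells with anti-CTLA-4 and 16.5% of 1002 with isotype. In members these shares were 40.6% and 17.2%, so the Cd8a rise was not particular to the members. Zbtb16 had 0 UMIs in 64 cells and 21 UMIs in 17 of 274, and Ncr1 had 1 UMI and 41. With thinning neither was past the fold. Of 5 tested NK cell markers, Klre1, Irf8 and Gzma were higher past the fold and Ncr1 lower, with a median log2 ratio of 1.04. Without the top cell of each library Klre1, Irf8 and Gzma were at 1.12, 0.64 and 2.32, so Irf8 was below 2-fold. Gzma was read in 8 of 64 and 31 of 274 cells. Of 13 tested killer lectin-like receptors, Klre1 was higher past the fold and Klrb1a lower. Klrb1a had a log2 ratio of -2.09 and was read in 1 of 64 and 40 of 274 cells. Zbtb16 was also lower in the stricter CD8 class, at 0.342 and 9.68 CPM. Trac was at 188 and 150 CPM and Tyrobp at 232 and 240. Fewer cells of a kind among the members and less RNA per cell cannot be told apart in these sums.

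Cytotoxic genes were higher with anti-CTLA-4 in few cells. Of 12 tested, 4 were higher past the fold and none lower, with a median log2 ratio of 0.37 beside 0.07 over all genes. Gzmb was at 826 and 165 CPM, read in 19 of 64 and 58 of 274 cells. Its log2 ratio was 2.32, and 2.08 without the top cell of each library, but 0.82 and no longer past the fold with thinning. In the stricter CD8 class it was 1.34. Prf1, perforin, was at 72.4 and 20.9 CPM in 11 and 26 cells, and was not past the fold with thinning. Gzmc was at 121 and 40.6 CPM in 7 and 20 cells, and thinning reversed its ratio to -0.23 on the log2 scale.

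Itgae and Xcl1 were lower with anti-CTLA-4, while their lists were split. Itgae was at 21.7 and 102 CPM, read in 5 of 64 and 74 of 274 cells, with a log2 ratio of -2.16 and -1.41 in the stricter CD8 class. Xcl1 was at 466 and 991 CPM, in 30 of 64 and 211 of 274 cells, at -1.09 and -1.34. Itgae was at -0.99 and not past the fold with thinning. Xcl1 was not past it among members without Ncr1 (-0.51), without doublet signs (-0.89) or without myeloid transcripts (-0.95). In all cells of each class, both genes were lower with anti-CTLA-4 in the members and in the stricter CD8 class. Of 19 residency and homing genes, 6 were lower past the fold, among them Itgae, Ccr8, S1pr1, Ahr and Cd9, and 3 higher, among them Cxcr6 and Ccr2, with 9 ratios above 1 and 10 below. Of 12 cytokines and chemokines, Xcl1 and Ccl1 were lower past the fold and Csf1 higher, with 6 ratios above 1 and 6 below and a median log2 ratio of -0.01. Klhl25, a ubiquitin ligase adaptor, had 0 UMIs in 64 cells with anti-CTLA-4 and 38 UMIs in 36 of 274 with isotype, while its log2 ratio in the stricter CD8 class was 0.19.

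Most interferon response genes and part of the memory genes were lower with anti-CTLA-4. Of 16 interferon genes, 7 were lower past the fold and 15 had a ratio below 1, with a median log2 ratio of -1.38. Oas1a, an antiviral enzyme, had a UMI in 1 of 64 and 35 of 274 cells, and Isg20, a nuclease, in 9 and 102. The log2 ratios of these 2 genes in the stricter CD8 class were -2.14 and -1.20. Of 13 memory genes, 5 were lower past the fold, among them Klf2, Klf3, S1pr1 and Bcl2, and none higher, with 8 ratios below 1, 5 above and a median log2 ratio of -0.51. Tcf7 was at 162 and 112 CPM. Klf2, a factor that keeps T cells recirculating, was at 101 and 552 CPM in 20 of 64 and 203 of 274 cells. Klf2, Klf3, S1pr1 and Bcl2 were also lower in the stricter CD8 class, with log2 ratios of -2.03 or below.

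Some checkpoint and cell cycle genes were higher with anti-CTLA-4. Of 13 checkpoint receptors, Pdcd1, Ctla4, Lag3 and Tigit were higher past the fold and Tnfrsf4 lower. Tigit was read in 51 of 64 cells with anti-CTLA-4 and 120 of 274 with isotype, at 367 and 183 CPM, and Ctla4 in 28 and 43 cells, at 205 and 77.4 CPM. Their log2 ratios in the stricter CD8 class were 0.53 and 0.82. Of 18 cell cycle genes, 6 were higher past the fold and none lower, with 4 to 7 cells holding each in the anti-CTLA-4 library. Without the top cell of each library the log2 ratios of Rrm2, Pclaf, Tyms and Ccna2 went from 1.72, 1.46, 1.48 and 1.64 to 0.26, 0.65, 0.58 and 0.83, below 2-fold, and those of Ccnb2 and Ube2c were 2.99 and 2.31. These list members were named after their values were seen.

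The largest anti-CTLA-4 ratios came with myeloid transcripts. Retnla, a secreted protein of alternatively activated macrophages, had 239 UMIs in 1 cell and 0 in the isotype members, and the 123 anti-CTLA-4 UMIs of Lyz2, lysozyme, were in 1 cell. H2-Aa, H2-Ab1 and H2-Eb1, MHC class II chains, had 27 of 43, 42 of 55 and 45 of 61 UMIs in the cell that held most. In the isotype library, all 52 UMIs of S100a8 and 63 of S100a9, neutrophil proteins, were in 1 cell, and 306 of the 429 of Cxcl2, a neutrophil chemokine, were in 1 cell. Leaving out the cells with 3 or more myeloid UMIs left 47 genes higher and 46 lower with anti-PD-1, and 157 and 128 with anti-CTLA-4. Ifitm1, an interferon-induced membrane protein, was at 642 and 48.2 CPM, in 9 of 64 and 14 of 274 cells.

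**Figure D5:**
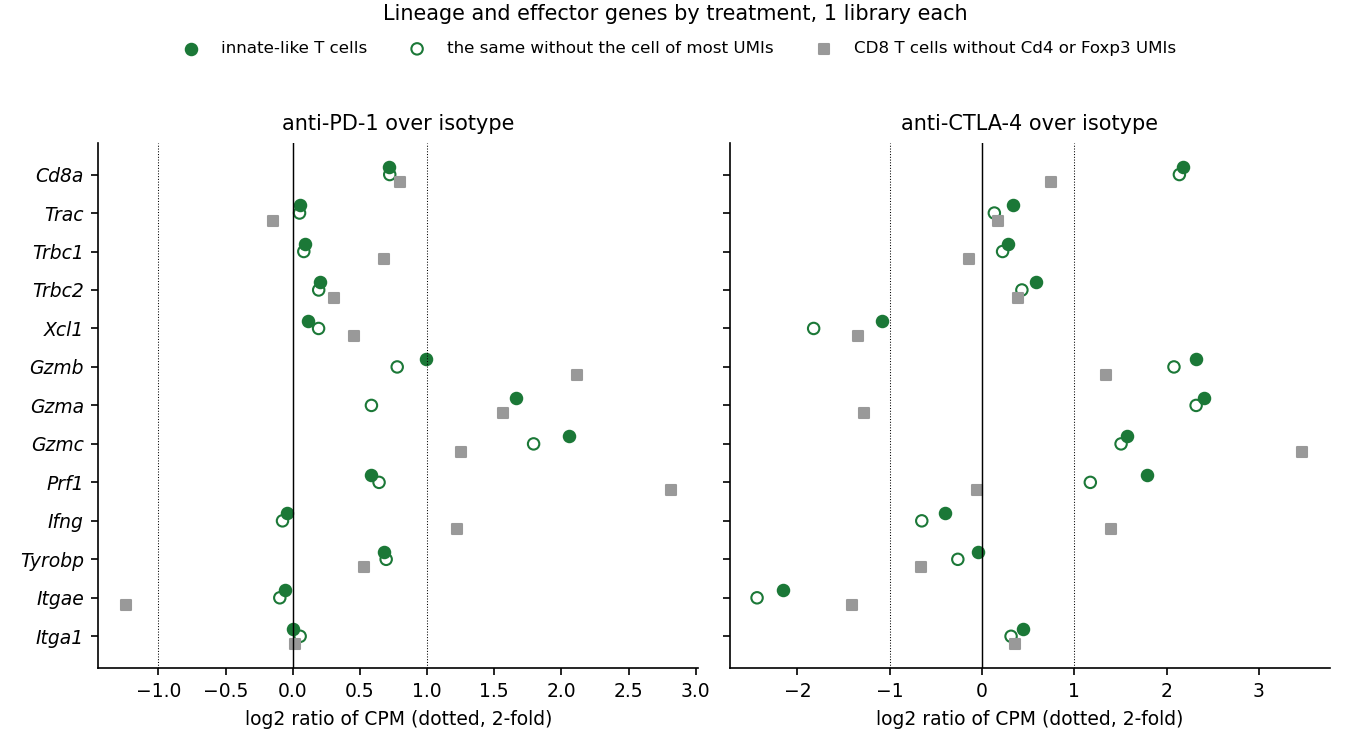
Log2 ratio of CPM to isotype for 13 lineage and effector genes with anti-PD-1 and anti-CTLA-4, in members, in members without the cell holding most UMIs, and in CD8 T cells without Cd4 and Foxp3, from 1 library each; dotted lines mark 2-fold. With anti-CTLA-4, Cd8a and Gzmb of the members are at 2.18 and 2.32, and Itgae is at -2.16; with thinning, not plotted, Gzmb was at 0.82 and Itgae at -0.99.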

How the data were processed

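Single-cell 5′ RNA and receptor libraries were deposited as matrices of UMI counts per gene and cell and as tables of receptor contigs with read and UMI counts. Per the submitters' processing notes the authors used Cell Ranger 3.0.2, and per the file headers the matrices came from version 3.1.0. Those notes list the builds mm10 and GRCh38 without saying which served which step. Counts were used as deposited, and receptor contigs were joined to RNA cells of the same treatment by the 16-base barcode. Library totals were 28466596, 24040712 and 24728203 UMIs in MOC1 (isotype, then the PD-1 and CTLA-4 antibodies), and members contributed 1575465, 1488164 and 414280. No doublet caller was run, and cells with several hashtags or 2 or more beta chains were left out as an alternative. Pairs of libraries shared 7 to 35 barcodes and no member barcode.

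The members, gene lists and tests were chosen with earlier results of these data known. UMI counts were summed per library and class and tested with edgeR 4.0.16 (quasi-likelihood, TMM, filterByExpr, Benjamini-Hochberg adjustment over all genes tested, called at 0.05) in R 4.3.3. The 11 genes of the class definitions were left out of the calls. Both classes came from the same library, so the pairing is by library, which entered the fit as a replicate block. Treatments have 1 library each and were compared by CPM with Poisson intervals, 0.5 UMI added to each sum, and no test. Scripts used Python 3.11.15 and scipy 1.17.1 and were tested on simulated data.

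The genes named were those called with the 15 highest and the 10 lowest log2 changes, given a mean of 50 CPM in the higher class and no overlap between libraries, up to 4 called genes with the smallest p of each list, the 8 highest and 8 lowest ratios per treatment with 30 or more UMIs, and a set of lineage and effector genes. Alternatives were thinning to 2000 UMIs, stricter cell and class definitions, DESeq2 1.42.0, other scaling and filters, no replicate block, and leaving out each library. Results for some named genes are not reported here.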

Additional observations from a re-analysis of the deposited data

Results flagged for a closer look

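The response to anti-CTLA-4 went opposite ways in the members and in CD8 T cells without Cd4 and Foxp3 for 2 named genes. The log2 ratio of H2-Eb1, an MHC class II chain, was 4.11 in the members and -1.13 in the CD8 T cells, with 45 of its 61 UMIs in 1 of 64 members. The log2 ratio of Gzma, granzyme A, was 2.40 in the members, read in 8 of 64 and 31 of 274 cells, and -1.28 in the CD8 T cells. Each rests on 1 library per treatment, and the difference was not tested.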

How the results depend on the processing

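Of 71 genes named against CD8 T cells, all 71 kept their direction and call with 2 or more UMIs of Cd3 or of Fcer1g, stricter cell filters, DESeq2 size factors or no filter on low counts. Without the replicate block 24 of the 71 lost their call, Xcl1, Bcl2, Cd7 and Cxcr6 among them, and with members that held Cd8b1 19 did and 1 reversed. Of treatment ratios recomputed with thinning, 35 kept their side of the fold, 24 lost it, 3 reversed and 8 without a call moved. In MOC1, calls went from 653 higher and 697 lower to 261 and 269 with thinning, 64 and 160 with members that held Cd8b1, and 392 and 405 with the DESeq2 Wald test. Without the replicate block they were 214 and 220. The lower calls were 427 against CD8 T cells without Cd4 and Foxp3 and 1102 with no filter. Leaving out 1 library gave 240 to 664 higher and 309 to 787 lower, with the fewest without anti-PD-1. In the other models, calls went from 472 and 549 to 149 and 174 with thinning, 22 and 21 with Cd8b1, 740 and 946 with no filter, and 206 and 221 without the replicate block. Leaving out 1 of those libraries gave 242 to 445 and 290 to 500, with the fewest without MOC1E1 anti-PD-1. The difference in share between anti-CTLA-4 and isotype was -3.29 points with thinning. It was -3.40 when only members with a receptor chain were counted, still over all T cells. Requiring both chains gave receptor differences of -19.1 and -19.7 points for isotype and anti-PD-1. Anti-PD-1 ratios past the fold were 27 higher and 30 lower with thinning, and 20 and 45 at 3-fold. The lower ones were 42 with Cd8b1 and 46 without cells holding myeloid transcripts. Anti-CTLA-4 gave 51 higher and 29 lower with thinning, 85 higher at 3-fold and 65 lower with Cd8b1. Signs turned for Ahr (-0.0081 with Cd8b1), H2-Ab1 (-0.50) and H2-Eb1 with anti-CTLA-4 (-1.89) without myeloid transcripts, and, with thinning, Gzmc with anti-CTLA-4 (-0.23) and Ccl1 with anti-PD-1 (0.13). Lyz2 with anti-CTLA-4 was at -1.36 without doublet signs, -1.08 with thinning and -1.53 without its largest cell. The cause of these moves was not tested. Leaving out myeloid transcripts or the largest cell was chosen after seeing the data. The 64 anti-CTLA-4 members limit every ratio taken from them.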
